A study of Homo sapiens with 6 samples.

Results

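The genes described here are the subunits of the proteasome, its activators and assembly factors, and NFE2L1, a transcription factor that acts on subunit genes. They were all genes whose symbol is PSMA, PSMB, PSMC, PSMD, PSME, PSMF or PSMG followed only by a number, plus POMP, ADRM1 and NFE2L1. The rule gave 51 of the 20263 genes in the deposited table, and the 2 symbols with letters after the number, PSMC3IP and PSME3IP1, were left out. RNA was measured by poly(A) RNA-seq as TPM, a length-corrected share of transcripts, in HCT116 cells, a long-used line from a human colorectal carcinoma. One group of 3 samples was HCT116 treated with CSE. The labels leave the abbreviation unexplained; since smoking stands in the series title, it is taken to mean cigarette smoke extract. The other group of 3 samples was HCT116 labelled WT under treatment. The sources used here give no dose, no length of exposure and no solvent, and both groups come from this single line. Whether the replicates of a group were separate cultures is not stated in the labels, so p-values cover only how these samples varied, and that variation may be technical. In bulk RNA, fewer cells of a kind and less RNA per cell cannot be told apart.

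The proteasome degrades proteins that carry chains of ubiquitin. Its 20S core is a barrel of 2 outer rings of alpha subunits, which form the gate, and 2 inner rings of beta subunits, of which PSMB5, PSMB6 and PSMB7 cut peptide bonds. A 19S cap binds, deubiquitinates, unfolds and feeds in the substrate: its base holds a ring of PSMC ATPases, and its lid holds the deubiquitinase PSMD14. In cells exposed to interferon, PSMB8, PSMB9 and PSMB10 replace the constitutive catalytic subunits in the immunoproteasome, and the PSME1 and PSME2 activator (PA28) can take the place of the cap, which alters the peptides offered on MHC class I. When proteasome capacity is short, NFE2L1 escapes its own degradation, is freed from sugars by NGLY1, cleaved by DDI2, and raises transcription of subunit genes.

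Each library had 12640 to 12778 genes at 1 TPM or more, and the sequencing depth is unknown because TPM keeps none. CSE and WT separated along the first principal component (76.9% of the variance), and the second (9.26%) set CSE replicate 3 apart from the other CSE samples. Mitochondrially encoded genes held 25.5% to 25.8% of the TPM in CSE and 27.0% to 30.2% in WT. Since TPM is a share, this difference enters the value of every other gene. The epithelial markers EPCAM, KRT8, KRT18, KRT19, CDH1 and CDX2 were expressed, whereas CDX1 was listed at 0 throughout and VIL1, CEACAM5, CDH17 and LGALS4 were under 1 TPM in mean. The 7 leukocyte markers summed to 13.4 to 14.2 TPM in CSE and 19.7 to 20.1 TPM in WT, almost all from CD68. The 7 fibroblast markers summed to 37.7 to 38.1 TPM in CSE and 43.2 to 45.4 TPM in WT, almost all from COL1A1, with DCN at 0. The 4 endothelial markers summed to 1.31 to 1.53 TPM in CSE and 0.75 to 1.22 TPM in WT. The part of these shares and sums in the values of the proteasome genes was not tested.

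Most proteasome genes that changed were higher in CSE, by up to 1.31-fold, while NFE2L1 was lower. Of the 51 genes, 49 were tested (TPM of at least 1 in at least 3 samples), and 23 were higher and 5 lower at a limma adjusted p under 0.05, with 21 not called. Over all 12793 genes tested, 24.5% were called higher, 25.6% lower and 50.1% in either direction. Of all these calls 48.9% were higher, or 34.1% after rescaling without the mitochondrially encoded genes, where 16 members were higher and 11 lower. The share of members called higher was 46.9% and the share called lower 10.2%. The median log2 fold change (CSE minus WT, computed on log2(TPM + 1)) was 0.095 for the members and -0.0039 for all genes tested. The 3 CSE values lay wholly above the 3 WT values for 25 members and wholly below for 10, against 27.5% and 29.9% of all genes tested. PSMA8, the alpha subunit of testis, was listed at 0 in every sample, and PSMB11, the beta subunit of the thymus, was listed at 0.05 TPM in WT replicate 3 and at 0 elsewhere, and neither was tested.

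**Figure D1:**
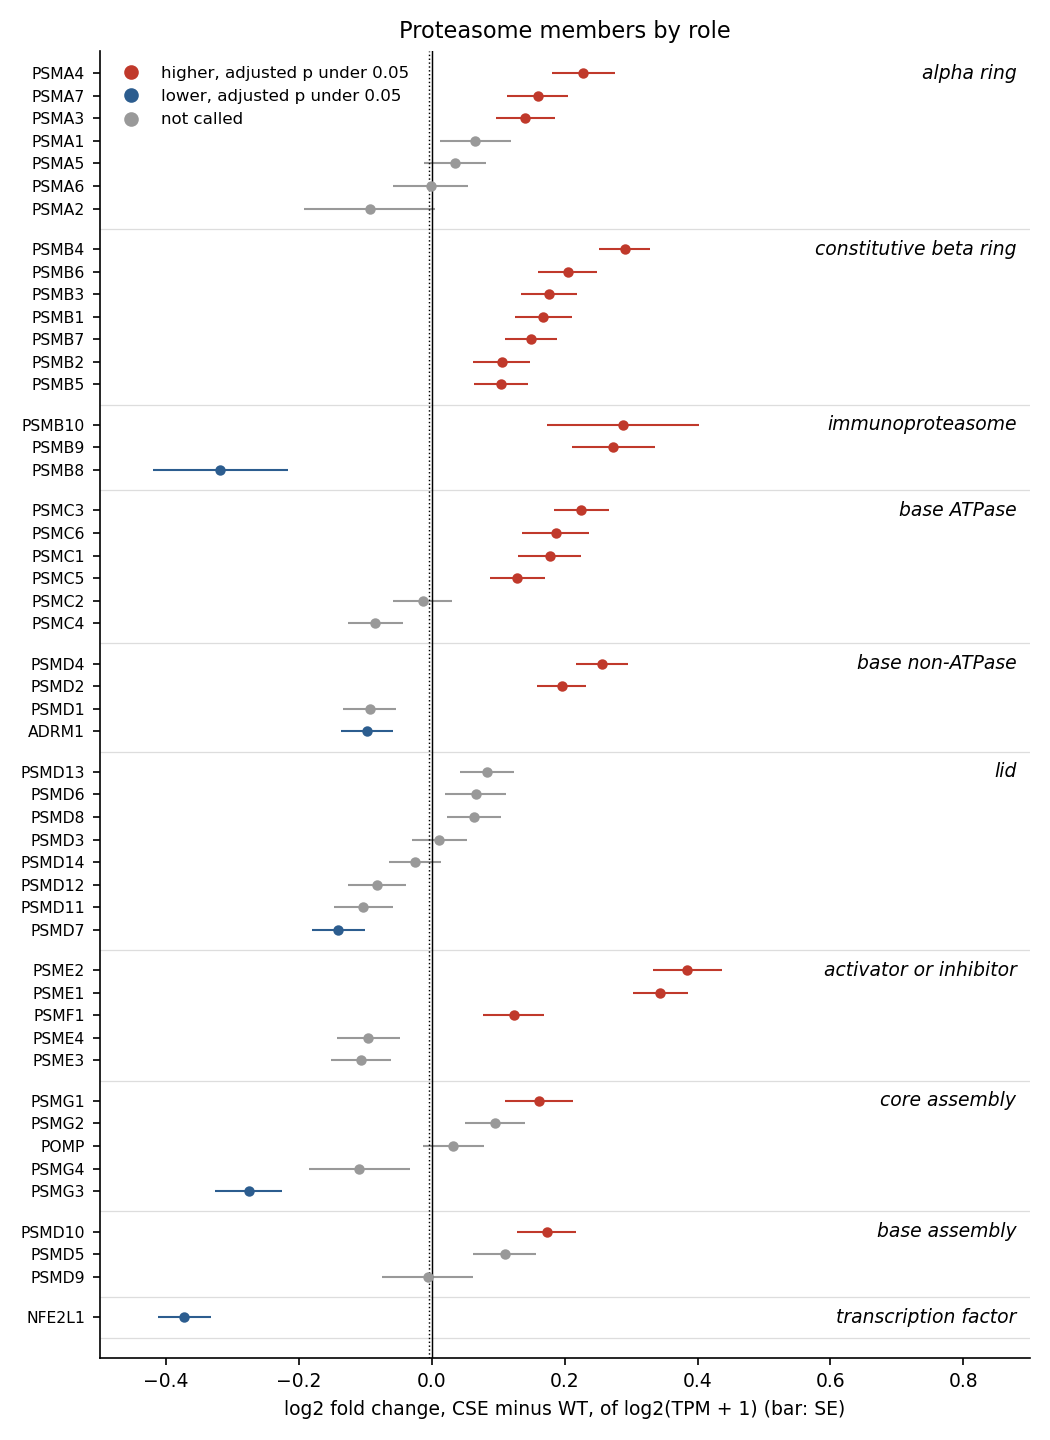
Log2 fold change of log2(TPM + 1), CSE minus WT, with its SE (limma), for the 49 tested members, grouped by role, 3 samples a group. The dotted line is the median of all genes tested (-0.0039). All 7 constitutive beta subunits lie to the right of 0, the lid genes lie on both sides, and PSMB8, PSMG3 and NFE2L1 lie farthest to the left.

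The promoters of 6 called members from different roles are printed to show which known elements lie in front of them: the PA28 pair PSME1 and PSME2, the beta subunit PSMB4, the alpha subunit PSMA4, the immunoproteasome subunit PSMB9 and the factor NFE2L1. Windows from RefSeq (GRCh38.p14) of 250 bases before to 50 after each start were searched on both strands for TGACNNNGC, the core of the antioxidant response element bound by NFE2L1 with a small Maf protein, for its extended form TGACTCAGC, for CCAAT, the box bound by NF-Y, and for a pair of GAAA words with 2 bases of any kind between them, the core of the interferon-stimulated response element (ISRE). TGACTCAGC is contained in TGACNNNGC. Capitals mark every match, on either strand.
PSME1 (chr14:24135944-24136243, plus strand): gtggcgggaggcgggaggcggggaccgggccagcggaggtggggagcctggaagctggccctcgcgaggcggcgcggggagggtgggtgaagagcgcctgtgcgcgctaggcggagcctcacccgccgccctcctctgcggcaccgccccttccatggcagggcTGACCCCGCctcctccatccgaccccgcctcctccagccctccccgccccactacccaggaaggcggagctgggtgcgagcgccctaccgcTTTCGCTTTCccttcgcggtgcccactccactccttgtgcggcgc
PSME2 (chr14:24146561-24146860, minus strand): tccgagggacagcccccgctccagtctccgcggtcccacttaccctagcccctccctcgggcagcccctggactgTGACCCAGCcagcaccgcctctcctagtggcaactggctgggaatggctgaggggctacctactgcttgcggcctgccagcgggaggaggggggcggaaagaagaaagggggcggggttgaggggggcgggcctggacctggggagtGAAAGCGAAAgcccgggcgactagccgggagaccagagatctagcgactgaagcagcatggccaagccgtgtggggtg
PSMB4 (chr1:151399323-151399622, plus strand): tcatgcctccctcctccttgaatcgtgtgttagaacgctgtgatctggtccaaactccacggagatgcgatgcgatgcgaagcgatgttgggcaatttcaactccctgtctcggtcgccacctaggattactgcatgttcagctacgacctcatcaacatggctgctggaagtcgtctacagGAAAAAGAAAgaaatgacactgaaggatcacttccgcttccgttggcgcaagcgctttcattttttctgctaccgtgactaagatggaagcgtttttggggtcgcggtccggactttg
PSMA4 (chr15:78540536-78540835, plus strand): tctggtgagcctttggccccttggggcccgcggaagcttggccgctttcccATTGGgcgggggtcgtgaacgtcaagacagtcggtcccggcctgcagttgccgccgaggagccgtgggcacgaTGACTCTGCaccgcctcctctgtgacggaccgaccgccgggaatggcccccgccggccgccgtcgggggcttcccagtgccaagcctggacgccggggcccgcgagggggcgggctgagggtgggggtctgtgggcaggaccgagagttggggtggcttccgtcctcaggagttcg
PSMB9 (chr6:32853942-32854241, plus strand): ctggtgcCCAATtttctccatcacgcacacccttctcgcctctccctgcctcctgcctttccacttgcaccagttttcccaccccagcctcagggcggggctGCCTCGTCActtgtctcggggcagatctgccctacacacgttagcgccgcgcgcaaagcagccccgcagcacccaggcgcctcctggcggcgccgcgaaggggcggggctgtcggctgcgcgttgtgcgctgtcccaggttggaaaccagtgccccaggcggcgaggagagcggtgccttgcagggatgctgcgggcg
NFE2L1 (chr17:48048109-48048408, plus strand): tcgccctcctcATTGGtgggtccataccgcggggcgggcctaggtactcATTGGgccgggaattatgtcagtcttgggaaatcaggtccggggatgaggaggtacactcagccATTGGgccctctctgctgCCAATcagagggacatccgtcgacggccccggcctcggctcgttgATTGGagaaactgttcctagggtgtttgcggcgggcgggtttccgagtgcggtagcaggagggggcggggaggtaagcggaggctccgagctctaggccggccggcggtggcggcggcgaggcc
In PSME1 the capitals are TGACNNNGC at -86 and the ISRE core on the opposite strand at 6, counted from the start site as 1. In PSME2 they are TGACNNNGC at -175 and the ISRE core at -28, so in both PA28 genes the ISRE core begins within 30 bases of the start. The PSMB4 window holds the ISRE core at -68, the PSMA4 window TGACNNNGC at -126 and CCAAT on the opposite strand, and the PSMB9 window TGACNNNGC on the opposite strand at -148 and CCAAT at -243. The RefSeq starts of all 6 printed windows lie inside the gene bounds of GENCODE 29, which span other transcripts too. The NFE2L1 window holds 5 matches to CCAAT, of which 4 are on the opposite strand and so read ATTGG. PSMA4 has 3 windows in the table and NFE2L1 has 2, and the printed one is the window with the most matches.

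Promoter windows were matched for 45 of the 51 members. Without a window were PSMB1, PSMB6, PSMB7, PSMA7 and PSMD4, all called higher, and PSMG3, called lower. A match to TGACNNNGC was found in 16 of the 45 (35.6%), against 13.3% of all 35116 windows and 19.4% of 10303 tested genes with a window. It was present in 7 of 18 members called higher, in 1 of 4 called lower (ADRM1) and in 8 of 21 not called, and the windows of the 2 untested members held none. None of the 45 held TGACTCAGC, which 0.561% of all windows hold. CCAAT was found in 22 of 45 (48.9%), against 34.6% of windows and 43.3% of tested genes. The ISRE core was found in 7 of 45 (15.6%), against 3.57% of windows and 3.8% of tested genes. The 7 are PSMA4, PSMB4, PSMB8, PSMB10, PSME1, PSME2 and PSMG4, of which 5 were called higher, PSMB8 lower and PSMG4 in neither direction. For PSMA4 this match lies in another window than the one printed. These matches describe letters in a window and were not tested as binding sites.

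All 7 constitutive beta subunits rose in CSE, against 24.5% of all genes tested called higher, and PSMB4 rose furthest. In the other settings 5 to 7 of the beta subunits were called higher. PSMB4, a structural beta subunit (β7) (ENSG00000159377, GRCh38 chromosome 1, 151399534 to 151401944, plus strand), had 416, 412 and 441 TPM in the CSE samples, against 358, 342 and 337 TPM in the WT samples. Every CSE value lay above every WT value, a 1.22-fold rise (log2 change 0.29 with SE 0.039 and limma adjusted p = 2.57e-06). PSMB6 (β1), which cuts after acidic residues, had 260.3, 256 and 282 TPM in the CSE samples, against 245, 224 and 224 TPM in the WT samples. PSMB6 rose 1.15-fold without overlap of the groups (log2 change 0.20 with SE 0.044 and limma adjusted p = 0.000606). PSMB7 (β2), which cuts after basic residues, had 299.5, 290.2 and 307 TPM in the CSE samples, against 274, 277 and 258 TPM in the WT samples. It rose 1.11-fold (log2 change 0.15 with SE 0.039 and limma adjusted p = 0.00307). PSMB5 (β5), which cuts after hydrophobic residues and is the main target of bortezomib, had 159.8, 158 and 172 TPM in the CSE samples, against 155, 149 and 151 TPM in the WT samples. Its rise was the smallest of the ring, and the lowest CSE value lay only just above the highest WT value (log2 change 0.10 with SE 0.041 and limma adjusted p = 0.039). The PSMB5 call was lost in 10 of 16 other settings. PSMB1 (β6), the structural subunit with the highest TPM, had 471, 488 and 529.5 TPM in the CSE samples, against 456, 444 and 424 TPM in the WT samples. It rose without overlap (log2 change 0.17 with SE 0.043 and limma adjusted p = 0.00261). The structural subunits PSMB3 (β3) and PSMB2 (β4) rose by 0.18 and 0.11 on the log2 scale, and the PSMB2 call held in 9 of 16 other settings. The summed TPM of the 7 genes was 2066 ± 87.8 in CSE and 1812 ± 62.8 in WT (SD, n = 3 each).

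In the alpha ring PSMA3, PSMA4 and PSMA7 rose, and PSMA1, PSMA2, PSMA5 and PSMA6 were not called. PSMA4 (α3), whose tail closes the gate of the core in yeast, had 63.5, 65.5 and 71.3 TPM in the CSE samples, against 56.7, 58.4 and 55.4 TPM in the WT samples. It rose 1.18-fold, with all CSE samples above all WT samples (log2 change 0.23 with SE 0.047 and limma adjusted p = 0.000393). PSMA7 (α4) rose by 0.16 (SE 0.046, limma adjusted p = 0.00636) and PSMA3 (α7) by 0.14 (SE 0.044, limma adjusted p = 0.0115). The PSMA7 call held in 14 of 16 other settings and the PSMA3 call in 9 of 16, with a lowest log2 fold change of 0.030 for PSMA3 once the trend on length and GC content was removed. The log2 fold change was 0.066 for PSMA1 (α6), 0.035 for PSMA5 (α5), -0.0014 for PSMA6 (α1) and -0.094 for PSMA2 (α2), all with overlapping groups. PSMA2 had the lowest level of the ring, with 1.59, 2.21 and 2.17 TPM in the CSE samples, against 2.14, 2.30 and 2.09 TPM in the WT samples. Over both rings, 10 of 14 core genes were higher and 0 lower by limma adjusted p, against 24.5% and 25.6% of all genes tested. The same 10 and 0 held at an unadjusted p under 0.05, where no share over all genes was computed. The core median log2 fold change was 0.15. That median was 0.082 under quantile normalization and 0.088 after rescaling without the mitochondrially encoded genes. The number of core genes called higher depended on single libraries and on the setting. It was 8 of 14 without CSE replicate 3, 6 of 14 without WT replicate 3 and 6 without the variance trend. In these settings 3518, 2525 and 2880 of all genes were called higher, against 3130 as reported.

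The 3 immunoproteasome subunits did not move together: PSMB9 and PSMB10 were higher in CSE and PSMB8 was lower. PSMB9 (β1i) (ENSG00000240065, GRCh38 chromosome 6, 32844136 to 32859585, plus strand) had 27.0, 27.2 and 30.9 TPM in the CSE samples, against 23.6, 25.2 and 21.1 TPM in the WT samples. It rose 1.22-fold without overlap (log2 change 0.27 with SE 0.063 and limma adjusted p = 0.00104). PSMB8 (β5i) (ENSG00000204264, GRCh38 chromosome 6, 32840717 to 32844703, minus strand) lies on the other strand, and its bounds overlap those of PSMB9. PSMB8 had 1.62, 1.46 and 1.86 TPM in the CSE samples, against 2.27, 2.69 and 1.96 TPM in the WT samples. It fell, with every CSE value below every WT value (log2 change -0.32 with SE 0.10 and limma adjusted p = 0.0122), and the log2(TPM + 1) scale understates the change of a gene at this level. PSMB10 (β2i) had 2.75, 3.11 and 3.56 TPM in the CSE samples, against 3.17, 2.30 and 1.81 TPM in the WT samples. It was called higher although the groups overlap, with WT replicate 1 above CSE replicates 1 and 2 (log2 change 0.29 with SE 0.11 and limma adjusted p = 0.0411). The PSMB9 call held in all 16 other settings. The PSMB10 call was lost in 10 of 15 other settings and that of PSMB8 in 2, under quantile normalization (-0.26) and without WT replicate 2 (-0.24).

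Set against the constitutive subunit that each replaces, PSMB9 was by far the most expressed. PSMB9 was at 10.4%, 10.6% and 10.9% of PSMB6 in the CSE samples, against 9.62%, 11.3% and 9.44% in the WT samples. The groups overlap, and a change of PSMB9 relative to PSMB6 was not tested. PSMB8 was at 1.01%, 0.924% and 1.08% of PSMB5 in the CSE samples, against 1.46%, 1.80% and 1.30% in the WT samples, and these groups do not overlap. PSMB10 was at 0.918%, 1.07% and 1.16% of PSMB7 in the CSE samples, against 1.16%, 0.831% and 0.702% in the WT samples. These ratios combine members and carry no test.

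**Figure D2:**
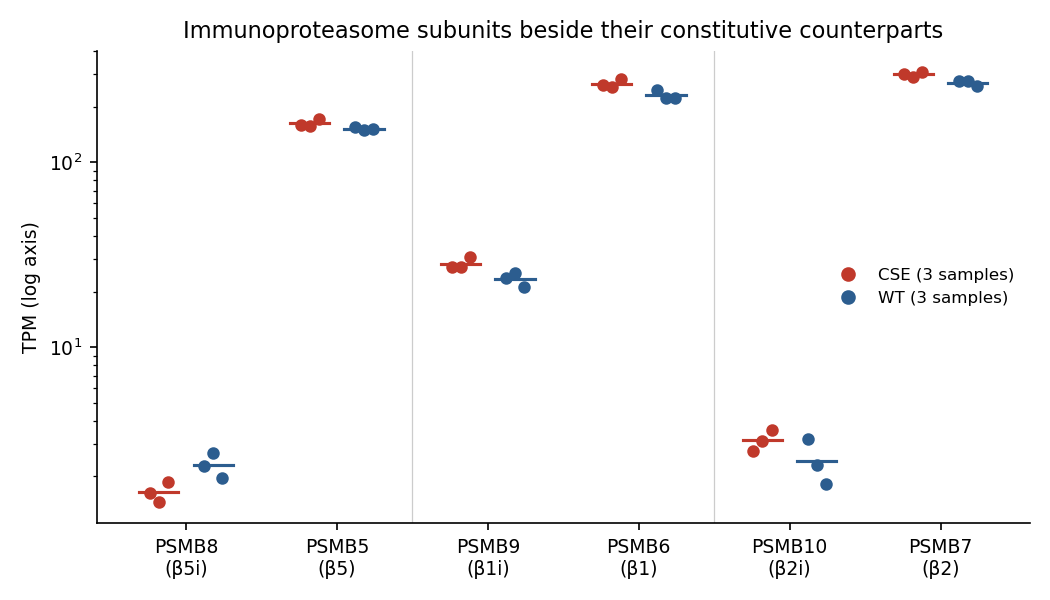
TPM on a log axis of the 3 immunoproteasome subunits, each left of the constitutive subunit it replaces, in 3 CSE and 3 WT samples (points; bars are group means). PSMB9 lies near 10% of PSMB6 in both groups, whereas PSMB8 and PSMB10 lie between 0.702% and 1.80% of their counterparts.

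In the base of the 19S cap, 6 of 10 genes rose and 1 fell, against 24.5% higher and 25.6% lower of all genes tested. The base median log2 fold change was 0.15, against -0.0039 for all genes tested. Of the 6 ATPases, which unfold the substrate, PSMC1, PSMC3, PSMC5 and PSMC6 rose and PSMC2 and PSMC4 were not called. PSMC3 (RPT5) had 171, 172 and 185 TPM in the CSE samples, against 155, 145 and 152 TPM in the WT samples. It rose 1.17-fold without overlap (log2 change 0.23 with SE 0.041 and limma adjusted p = 0.000118). PSMC6 (RPT4) rose by 0.19, PSMC1 (RPT2) by 0.18 and PSMC5 (RPT6) by 0.13 on the log2 scale, and the log2 fold change was -0.014 for PSMC2 (RPT1) and -0.085 for PSMC4 (RPT3). PSMC1, whose counterpart in yeast takes part in opening the gate of the core, had 31.9, 31.2 and 31.2 TPM in the CSE samples, against 27.4, 28.0 and 27.6 TPM in the WT samples, with no overlap between groups. Exons on the other strand, with NRDE2 as the largest overlap, cover 75.8% of the exonic bases of PSMC1. PSMC1 also has 13 named pseudogenes in GENCODE 29, so its value is uncertain. The PSMC5 call held in 12 of 16 other settings. Exons on the other strand, with FTSJ3 as the largest overlap, cover 19.5% of the exonic bases of PSMC5.

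The 3 ubiquitin receptors of the base went different ways. PSMD4 (RPN10) had 242, 236 and 252 TPM in the CSE samples, against 210.0, 203 and 198 TPM in the WT samples. It rose 1.20-fold (log2 change 0.26 with SE 0.039 and limma adjusted p = 1.41e-05). PSMD2 (RPN1), which also binds shuttle proteins, had 223, 222 and 222 TPM in the CSE samples, against 199, 191 and 192 TPM in the WT samples. It too rose without overlap (log2 change 0.20 with SE 0.037 and limma adjusted p = 0.000158). ADRM1 (RPN13), the receptor that also docks the deubiquitinase UCHL5, had 191, 196 and 207 TPM in the CSE samples, against 215, 209.8 and 209.8 TPM in the WT samples. All CSE values lay below all WT values, but CSE replicate 3 lay close to the WT samples (log2 change -0.10 with SE 0.039 and limma adjusted p = 0.0443). The ADRM1 call was lost in 9 of 16 other settings. Exons on the other strand, with LAMA5 as the largest overlap, cover 17.2% of the exonic bases of ADRM1. PSMD1 (RPN2), the scaffold of the base, had a log2 fold change of -0.094 and was not called (limma adjusted p = 0.0594).

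Of the 8 lid genes 0 rose, by adjusted or unadjusted p in limma, 1 fell and 7 were not called. By adjusted p, 24.5% of all genes tested were higher and 25.6% lower. The lid median log2 fold change was -0.0068, and it was 0.0021 without CSE replicate 1 and 0.013 without WT replicate 1. At an unadjusted p under 0.05 there were 2 lid genes lower. PSMD7 (RPN8), the partner of the deubiquitinase PSMD14, had 112, 114 and 116 TPM in the CSE samples, against 128, 129 and 121 TPM in the WT samples. It fell, with no overlap between groups (log2 change -0.14 with SE 0.040 and limma adjusted p = 0.00562), and exons on the other strand cover 30.7% of its exonic bases. PSMD14 itself had 143, 144 and 153 TPM in the CSE samples, against 148, 152 and 147 TPM in the WT samples, and CSE replicate 3 was above all WT samples while the other CSE samples were below them (log2 change -0.025 with SE 0.040 and limma adjusted p = 0.622). The scaffold subunits, none of them called, had log2 fold changes on both sides of 0: 0.083 for PSMD13 (RPN9), 0.066 for PSMD6 (RPN7), 0.064 for PSMD8 (RPN12), 0.011 for PSMD3 (RPN3), -0.082 for PSMD12 (RPN5) and -0.10 for PSMD11 (RPN6). The number of lid genes called lower was 3 under quantile normalization, 3 after rescaling without mitochondrially encoded genes, and 3 once the trend on length and GC content was removed, which also called 1 higher. SEM1, a small ninth lid subunit outside the naming rule, was higher (log2 change 0.15 with SE 0.054 and limma adjusted p = 0.0265).

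Summed over genes, the core stood at 2624, 2624 and 2810.5 TPM in the CSE samples, against 2474, 2370.0 and 2285 TPM in the WT samples, a ratio of means of 1.13. The base summed to 1347, 1346 and 1409.8 TPM in the CSE samples, against 1313, 1268 and 1255 TPM in the WT samples, a ratio of 1.07. The lid summed to 932, 925 and 944 TPM in the CSE samples, against 959, 948 and 908 TPM in the WT samples, a ratio of 0.995. The core and base sums of the groups do not overlap and the lid sums do.

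**Figure D3:**
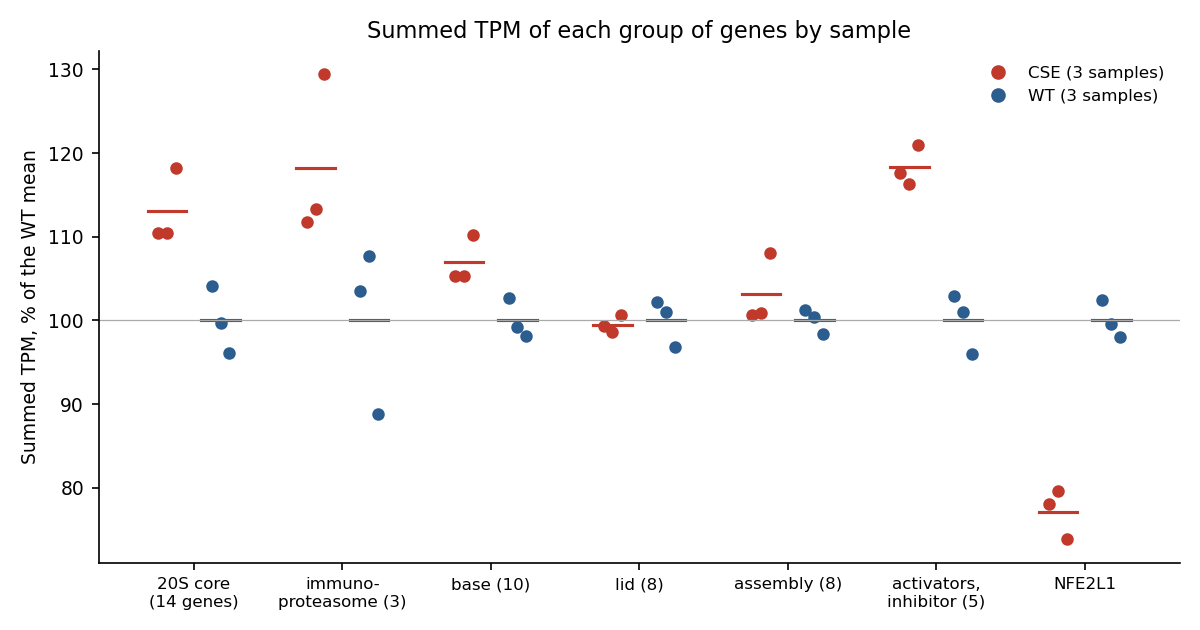
Summed TPM of each group of genes in every sample, as a percentage of the WT mean, for 3 CSE samples (left) and 3 WT samples (right); bars are group means. The sums of core, immunoproteasome, base, and activators with the inhibitor are higher in all CSE samples than in all WT samples. Most of the immunoproteasome sum is PSMB9, while PSMB8 is lower in CSE. Most of the activator sum is PSME1 and PSME2, while PSME3 and PSME4 lie below WT and are not called. The groups overlap for the lid and for assembly, and NFE2L1 is lower.

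The PA28 pair rose, with the largest log2 fold changes of the members called higher on the log2(TPM + 1) scale, and the other activators were not called. In TPM, the less expressed PSMB10 had a fold of 1.29, between PSME2 and PSME1. PSME2 (PA28β) (ENSG00000100911, GRCh38 chromosome 14, 24143362 to 24147570, minus strand) had 133, 125 and 142 TPM in the CSE samples, against 111, 99.4 and 95.5 TPM in the WT samples. It rose 1.31-fold (log2 change 0.38 with SE 0.052 and limma adjusted p = 2.76e-06). Its partner PSME1 (PA28α), a close neighbour on chromosome 14 (ENSG00000092010, GRCh38 chromosome 14, 24136158 to 24138967, plus strand), had 266, 267 and 282 TPM in the CSE samples, against 218, 220.5 and 203 TPM in the WT samples. It rose 1.27-fold (log2 change 0.34 with SE 0.041 and limma adjusted p = 4.75e-07), and in both genes every CSE sample lay above every WT sample. The TPM ratio of PSME1 to PSME2, which form a mixed heptamer, was 1.99, 2.14 and 1.99 in the CSE samples, against 1.96, 2.22 and 2.12 in the WT samples, and these groups overlap. The nuclear activators had negative values: the log2 fold change was -0.11 for PSME3 (PA28γ; limma adjusted p = 0.055) and -0.10 for PSME4 (PA200; limma adjusted p = 0.0969). PSMF1 (PI31), named as an inhibitor of the core in vitro, rose by 0.12 (SE 0.046, limma adjusted p = 0.0303). This call held in 11 of 16 other settings and was lost, among others, after rescaling without mitochondrially encoded genes (0.067).

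Of 8 assembly factors 2 rose, 1 fell and 5 were not called, against 24.5% higher and 25.6% lower of all genes tested. Their median log2 fold change was 0.064. After rescaling without mitochondrially encoded genes the median was 0.0066 and 1 rose. PSMG3 (PAC3), a chaperone of the alpha ring (ENSG00000157778, GRCh38 chromosome 7, 1567330 to 1571005, minus strand), had 45.1, 44.4 and 50.5 TPM in the CSE samples, against 57.5, 54.8 and 57.5 TPM in the WT samples. It fell 1.21-fold without overlap (log2 change -0.28 with SE 0.050 and limma adjusted p = 9.77e-05). PSMG1 (PAC1), which works with PSMG2 in placing alpha subunits, had 38.5, 36.5 and 39.7 TPM in the CSE samples, against 36.1, 33.6 and 32.5 TPM in the WT samples. It rose (log2 change 0.16 with SE 0.051 and limma adjusted p = 0.0115), a call lost after that rescaling (0.11) and without WT replicate 3 (0.13), whereas PSMG2 (PAC2; 0.095) and PSMG4 (PAC4; -0.11), the partner of PSMG3, were not called. POMP, which is needed for beta ring assembly and is the first substrate of the new core, had 120.2, 129.9 and 136 TPM in the CSE samples, against 128, 129 and 119.5 TPM in the WT samples. The groups overlap, and POMP did not pass (log2 change 0.033 with SE 0.046 and limma adjusted p = 0.578). Of the chaperones of the base, PSMD10 (gankyrin) had 81.2, 80.4 and 87.9 TPM in the CSE samples, against 75.5, 73.1 and 72.2 TPM in the WT samples. It rose 1.13-fold (log2 change 0.17 with SE 0.044 and limma adjusted p = 0.00251), and the log2 fold change of the other chaperones was 0.11 for PSMD5 and -0.0061 for PSMD9, neither called.

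NFE2L1 had the most negative log2 fold change of the members on the log2(TPM + 1) scale, whereas PSMB8, at a far lower level, fell further in TPM (1.40-fold, against 1.30-fold for NFE2L1) and at a pseudocount of 0.1 (-0.46, against -0.37). NFE2L1 (ENSG00000082641, GRCh38 chromosome 17, 48048329 to 48061487, plus strand) had 119, 122 and 113 TPM in the CSE samples, against 157, 152 and 149.9 TPM in the WT samples. All CSE values lay well below all WT values, and NFE2L1 fell in CSE (log2 change -0.37 with SE 0.041 and limma adjusted p = 1.48e-07). It was called in all 16 other settings, with log2 fold changes of -0.43 to -0.32. These are mRNA levels; the cleavage and turnover of the protein, by which NFE2L1 is mainly controlled, were not measured.

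Over all genes tested, 25.6% were called lower and 24.5% higher. Among 16 genes that process NFE2L1 or work with it, 8 fell, 3 rose and 5 were not called (median log2 fold change -0.16). NGLY1, the glycanase that removes its sugars, had 31.6, 35.7 and 33.3 TPM in the CSE samples, against 20.2, 19.1 and 19.4 TPM in the WT samples. This was a 1.71-fold rise (log2 change 0.74 with SE 0.053 and limma adjusted p = 2.85e-10). NFE2L3, its closest relative, had 42.8, 43.6 and 39.8 TPM in the CSE samples, against 59.0, 59.4 and 57.0 TPM in the WT samples (log2 change -0.47 with SE 0.046 and limma adjusted p = 3.72e-08). The small Maf partners MAFG (-0.43) and MAFF (-0.35) fell, as did BACH1 (-0.35), a repressor that competes for the same sites. MAFK (0.031), another small Maf, was not called. The genes of the ligase SYVN1 (-0.21), of NPLOC4 (-0.34), which helps to pull proteins out of the endoplasmic reticulum, of OGT (-0.21), which attaches sugars in the nucleus and cytosol, and of its partner HCFC1 (-0.42) fell as well. NFE2L2 (NRF2) rose by 0.20 and KEAP1, which holds it down, by 0.19. The others of the list, VCP (-0.086), UFD1 (0.011), FBXW7 (-0.052) and BTRC (-0.11), were not called. DDI2, the protease that cleaves NFE2L1, had 16.2, 16.6 and 14.1 TPM in the CSE samples, against 20.1, 20.4 and 18.9 TPM in the WT samples, and it fell (log2 change -0.33 with SE 0.062 and limma adjusted p = 0.000163).

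**Figure D4:**
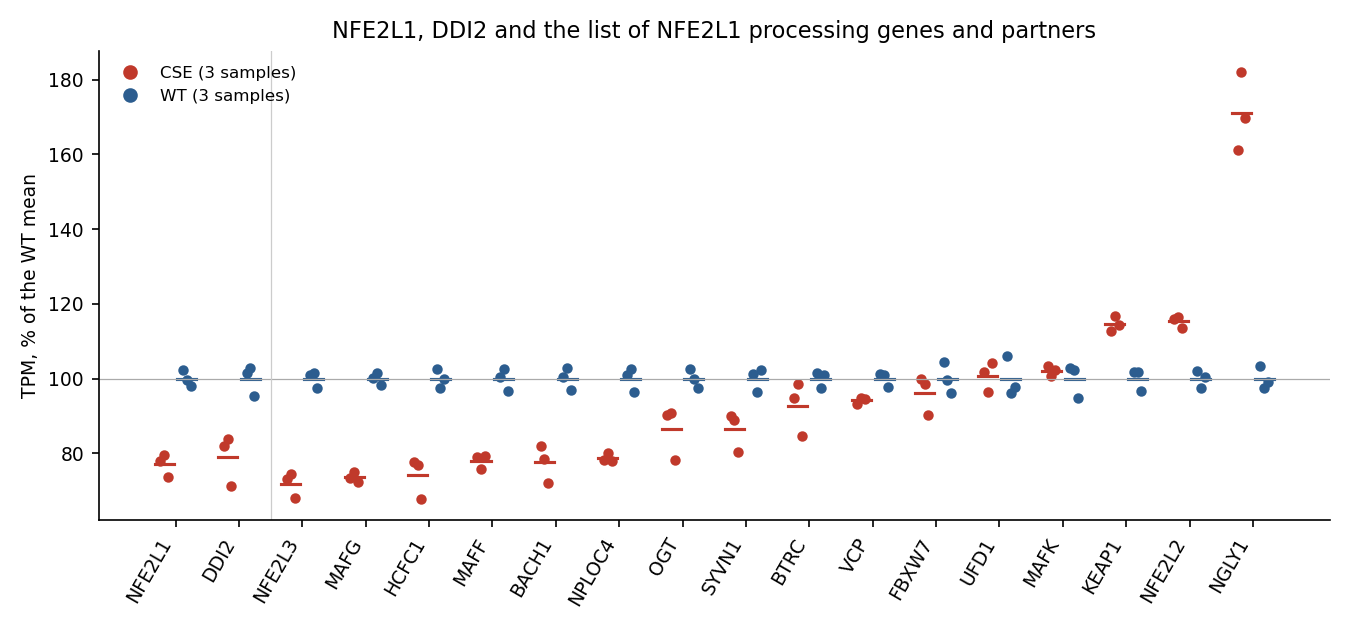
TPM in every sample as a percentage of the WT mean for NFE2L1, DDI2 and the 16 genes of the list, ordered by log2 fold change, in 3 CSE (left) and 3 WT samples (right); bars are group means. NFE2L1, DDI2 and the 8 list genes called lower lie below all WT samples in all CSE samples, and NGLY1 lies farthest above.

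In the wider ubiquitin system the calls went both ways, as over all genes tested, where 24.5% were called higher and 25.6% lower. Of 12 proteasome-bound factors 4 rose, 2 fell and 6 were not called (median 0.030). ZFAND5, a proteasome activator known from muscle wasting in mice, had 98.4, 101 and 97.2 TPM in the CSE samples, against 84.5, 81.8 and 80.8 TPM in the WT samples (log2 change 0.26 with SE 0.040 and limma adjusted p = 1.67e-05). UBE3C, a ligase that extends ubiquitin chains on stalled substrates, had 66.2, 65.6 and 59.2 TPM in the CSE samples, against 77.1, 78.4 and 74.3 TPM in the WT samples (log2 change -0.26 with SE 0.047 and limma adjusted p = 8.01e-05). Of 9 shuttle receptors 8 were tested, 3 rose and 3 fell (median 0.034). NBR1, an autophagy receptor, rose furthest, with 87.6, 89.8 and 84.5 TPM in the CSE samples, against 73.8, 74.9 and 73.1 TPM in the WT samples (log2 change 0.24 with SE 0.041 and limma adjusted p = 6.37e-05), and DDI2, given above, fell furthest. Of 6 ubiquitin and activating enzyme genes 2 rose and 2 fell (median 0.072). UBA1, the main activating enzyme, had 219, 221 and 214 TPM in the CSE samples, against 192, 186 and 188 TPM in the WT samples and rose (log2 change 0.21 with SE 0.037 and limma adjusted p = 8.88e-05). UBA6, the alternative one, had 25.1, 25.7 and 24.5 TPM in the CSE samples, against 28.2, 28.4 and 27.5 TPM in the WT samples and fell (log2 change -0.15 with SE 0.049 and limma adjusted p = 0.0125).

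Of 14 genes of interferon response and MHC class I processing 12 were tested, 4 rose, 8 were not called and 0 fell, by adjusted or unadjusted p in limma (median -0.013). Among all genes tested, 24.5% were called higher and 25.6% lower. CALR, a chaperone of the endoplasmic reticulum that loads class I, rose furthest, with 1375, 1402 and 1359 TPM in the CSE samples, against 1111, 1072 and 1051 TPM in the WT samples (log2 change 0.35 with SE 0.037 and limma adjusted p = 6.77e-08). TAPBP (0.34), PDIA3 (0.16) and the peptide transporter gene TAP1 (0.14) also rose. TAP1 shares a promoter region with PSMB9 and had 51.9, 51.5 and 51.5 TPM in the CSE samples, against 48.8, 46.5 and 44.7 TPM in the WT samples. The interferon factors STAT2 (-0.055), IRF1 (0.11), IRF2 (-0.10) and NLRC5 (-0.10) were not called.

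Within a class, mRNA levels of subunits that enter the particle in equal number differed widely. Averaged over the 6 samples, the alpha ring ran from 2.08 TPM for PSMA2 to 244 TPM for PSMA7. The beta ring ran from 67.5 TPM for PSMB2 to 469 TPM for PSMB1, the ATPases from 29.6 TPM for PSMC1 to 163 TPM for PSMC3, and the lid from 60.5 TPM for PSMD11 to 182 TPM for PSMD3. PSMA2, PSMA1 and PSMA6, the 3 alpha genes with the lowest TPM, are also the ones overlapped on the same strand in GENCODE 29. Exons of other genes on that strand cover 14.6%, 24.7% and 14.1% of their exonic bases. PSMA3, PSMA4, PSMA5 and PSMA7 have no overlap (0%). GENCODE 29 also names 3 pseudogenes of PSMA2, 4 of PSMA6 and 1 of PSMA3, and 0 of the other alpha ring genes. Exons of other genes on the same strand cover 34.8% of the exonic bases of PSMB10. For PSMB8, exons on the other strand cover 20.6%, with PSMB8-AS1 as the largest overlap. The part of overlap and of pseudogenes in these levels was not tested.

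The libraries at the ends of the range recurred across members. CSE replicate 3 held the highest value for 26 of the 49 tested members and for 10 of the 14 core genes. WT replicate 3 held the lowest value for 24 of these members and 11 of the core genes. The same counts over all genes tested were not made, so whether this holds beyond the members is not known. Without CSE replicate 3, 20 members were higher and 6 lower, and without WT replicate 3, 17 and 7. Over all genes, 3518 were called higher and 3040 lower without CSE replicate 3, and 2525 and 3089 without WT replicate 3. The length of the longest coding transcript also moved with the result. Over all genes tested, the median log2 fold change was 0.048 in the shortest of 4 equal bins of genes (171 to 2128 bases), 0.011 in the second, -0.018 in the third and -0.045 in the longest. Core genes had a median length of 1012 bases and lid genes of 1972 bases. With the trend on length and GC content removed in each sample, a setting chosen after seeing the data, the median of the core was 0.10, of the base 0.12 and of the lid -0.021, with 22 members higher and 11 lower.

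**Figure D5:**
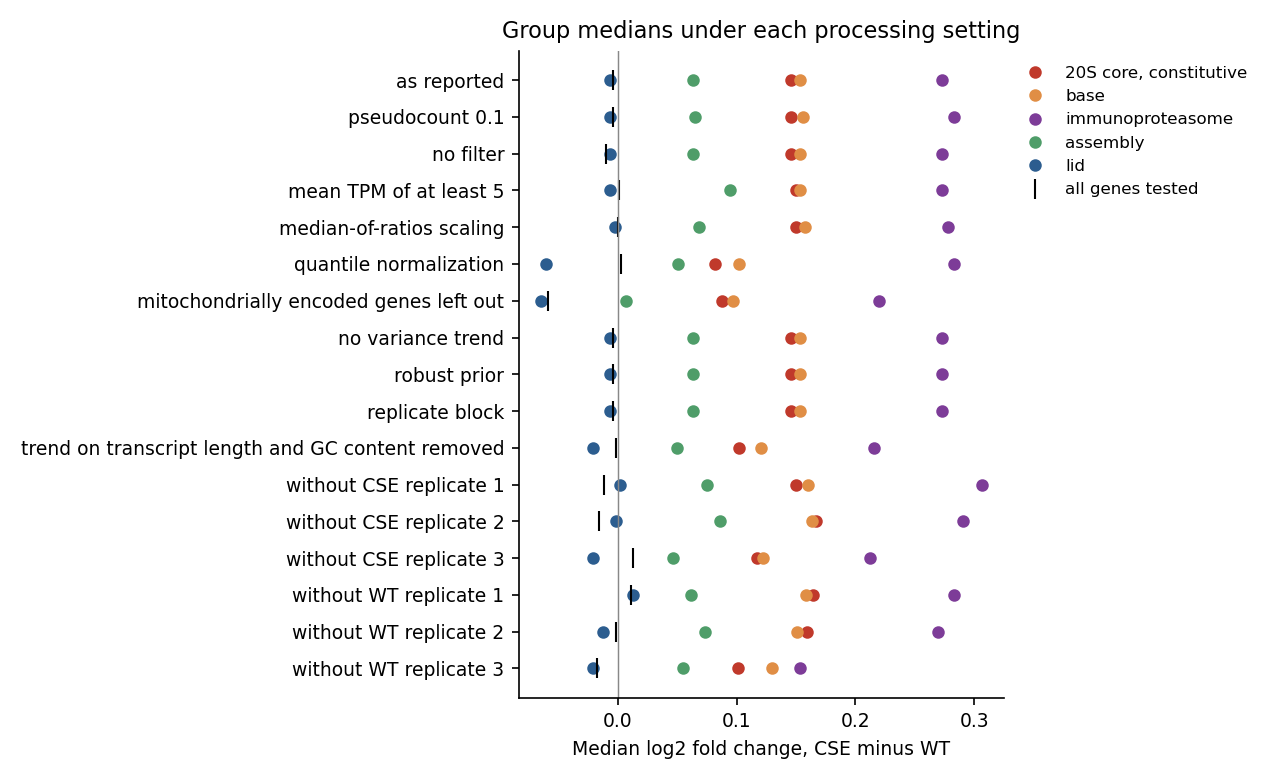
Median log2 fold change, CSE minus WT, of the core (14 genes), base (10), immunoproteasome (3), assembly factors (8) and lid (8), and of all genes tested (ticks), under each processing setting. The medians of core and base lie between 0.082 and 0.17 in all settings, and the lid median lies between -0.065 and 0.013.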

How the data were processed

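RNA of 6 HCT116 samples, 3 treated with CSE and 3 WT, was made into poly(A) libraries, per the labels' protocols. Per the submitters' processing notes, the build was GRCh38 and the tools included HISAT2 2.0, Trimmomatic 0.36, bedtools 2.26.0 and FastQC 0.11.2. Their roles, the counter, the annotation and the use of strand are not given in the sources used. The authors deposited TPM for 20263 genes with 2 decimals, and 0 sample columns were left unmapped. Depth is unknown, so no counting interval was computed.

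Symbols were matched from Ensembl IDs for 20148 genes, and positions, transcript lengths and overlaps come from GENCODE 29. Genes at 1 TPM or more in 3 or more samples were kept, transformed to log2(TPM + 1) and compared with limma 3.58.1 in R 4.3.3 (trended empirical Bayes, without covariates). P-values were adjusted by Benjamini-Hochberg over all 12793 genes at 0.05. The procedure was tested on simulated data, with a pass mark set only for changes larger than those of the tested members. Members, role classes and lists were chosen with earlier results of these data known, and no test was run over a list. Values in every sample are given for the immunoproteasome subunits and their counterparts, NFE2L1, POMP and ADRM1, and the called member with the largest rise and fall in each class, and from each of 5 other lists the called genes with the largest rise and fall. PSME1, PSMB1, PSMA2, PSMC1, PSMD2, PSMD14 and TAP1 were given so in addition after their values were seen. Alternatives were another pseudocount, filters, scalings, variance priors, a replicate block and the omission of each sample.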

Additional observations from a re-analysis of the deposited data

How the results depend on the processing

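Of 780 pairs of a member gene and another setting, 668 kept the direction and the side of the threshold, 58 lost a call, 31 gained one and 23 changed sign. Of the members called, 15 of 23 higher and 3 of 5 lower (PSMD7, PSMG3 and NFE2L1) were called in every setting in which they were tested. The causes of the changes below were not tested. With mitochondrially encoded genes left out, 34.1% of all calls were higher, against 48.9% as reported, and the median of all genes was -0.059. In that setting 16 members were higher and 11 lower, the medians were 0.038 for all members, 0.088 for the core, 0.097 for the base, 0.0066 for assembly and -0.065 for the lid, 1 immunoproteasome gene and 1 assembly gene were higher, and 3 base and 3 lid genes lower. Under quantile normalization 10 members were lower, with 3 base, 3 lid and 0 immunoproteasome genes among them, and medians of 0.082 for the core, 0.10 for the base and -0.060 for the lid. With the trend on length and GC content removed, 11 members were lower (3 base, 3 lid), and 1 lid and 1 immunoproteasome gene were higher. Median-of-ratios scaling called 2 lid genes lower and 1 immunoproteasome gene higher. Without the filter 1 immunoproteasome gene was higher and 0 base genes lower, and at a mean TPM of at least 5, where PSMB8 and PSMB10 drop out, 1 was higher and 0 lower. Without the variance trend 6 core genes and 1 immunoproteasome gene were higher and 0 base genes lower, and the robust prior called 1 immunoproteasome gene higher. Deviations from the group means correlated at -0.071, 0.015 and -0.088 in same-numbered samples and at -0.089 to 0.12 in differently numbered ones. With 3 samples a group, these correlations cannot exclude that replicate numbers pair the samples. With the replicate block 21 members were higher and 6 lower, with 1 immunoproteasome gene higher, 2 lid genes lower and 0 base genes lower. Leaving out 1 sample in turn gave 17 to 22 members higher and 3 to 7 lower, 6 to 10 core, 5 to 6 base and 1 to 2 immunoproteasome genes higher, and 0 to 2 base, 1 to 3 lid and 0 to 1 immunoproteasome genes lower. The medians ran from 0.10 to 0.17 for the core, 0.12 to 0.16 for the base, 0.15 to 0.31 for the immunoproteasome and -0.021 to 0.013 for the lid. Where 1 sample was left out, 2 remained in its group, and the same test applied. Genes that were not called changed sign around 0. PSMD3 was at -0.047 and POMP at -0.0021 under quantile normalization, and PSMD3 at -0.046, POMP at -0.025 and PSMA5 at -0.022 with mitochondrially encoded genes left out. POMP was at -0.068 and PSMD9 at 0.014 with the length trend removed, PSMD9 at 0.020 under quantile normalization and PSMA6 at 0.0034 under median-of-ratios scaling. With 1 sample left out in turn, the log2 fold change ran from -0.15 to 0.0066 for PSMA2, -0.0030 to 0.077 for PSMA5, -0.045 to 0.069 for PSMA6, -0.047 to 0.0062 for PSMC2, -0.015 to 0.056 for PSMD3, -0.093 to 0.061 for PSMD9 and -0.0068 to 0.080 for POMP. Because the depth is unknown, no counting limit can be set on the low values of PSMA2, PSMB8 and PSMB10.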
